A study of Mus musculus with 12 samples.

Results

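The PARP family and Dtx3l are described here as 10 genes, namely Parp1, Parp2, Parp3, Parp9, Parp10, Parp11, Parp12, Parp14, Dtx3l and Zc3hav1. Members were found as all probes, other than control spots, whose RefSeq transcript belongs to one of these genes. All 10 were on the array, with 11 probes among the 27509 probes that carry 1 of 20887 named genes, because Dtx3l has 2 probes. Expression of a probe was accepted if the scanner software flagged it as well above background for 1 condition on 3 or more of 4 arrays in any comparison. By that rule 9 of the 10 members were expressed, among 14330 named genes and 29361 probes in all. Zc3hav1 was measured by a single probe that did not pass, and it is described by its signals only.

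ADP-ribosyltransferases of the PARP family take ADP-ribose from NAD and attach it to proteins or nucleic acids. Parp1, Parp2 and Parp3 are nuclear enzymes that sense DNA strand breaks and recruit repair factors. Parp9, Parp10, Parp11, Parp12, Parp14, Zc3hav1 (also known as ZAP or PARP13, an RNA-binding protein that restricts viruses) and Dtx3l (a Deltex-type ubiquitin ligase that works as a complex with Parp9) are known for their induction by interferons, and in brain tissue such genes are typically studied in microglia and astrocytes that respond to inflammation. The first 3 genes are called DNA repair members below and the other 7 interferon-responsive members.

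RNA came from neurospheres, clusters of neural progenitors, grown from the telencephalon of C57BL/6 mouse embryos at day 13 of gestation, attached to a coated surface and differentiated for 7 days without EGF and FGF-2. WT neurospheres came from wild-type embryos and APP_WT neurospheres from embryos of the APPswe/PS1dE9 line, which expresses transgenes directed to neurons, among them a mutant mouse-human chimera of App; both were untreated. BK_APP and HOE_APP neurospheres carried the same transgenes and received 1 µM bradykinin (BK), an inflammatory peptide that activates the kinin B2 receptor, or 1 µM HOE-140, a peptide analogue of bradykinin that blocks this receptor, on days 0, 3 and 6 of differentiation. APP_WT was compared with WT, and each treatment with APP_WT, on 4 two-colour arrays per comparison, with 4 independent biological replicates per the study's methods and dyes swapped between replicates 1 and 2 and replicates 3 and 4. BK_APP and HOE_APP were each set against untreated APP_WT, so these comparisons share their control condition, and whether they shared its RNA is not stated.

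On a single array 51.2% to 60.3% of spots were well above background in either channel, and 1 spot of all 12 arrays was saturated. For every comparison a log2 ratio of the condition named first over the condition named second was used, and the number of arrays limits the precision. The App probe did not settle the genotype labels: its log2 fold change was 0.12 (SE 0.04, limma adjusted p = 0.0925) in APP_WT versus WT, and whether it binds the chimeric transgene was not tested. Markers of neurons (9 of 9), neural progenitors (5 of 5) and astrocytes (7 of 7) were expressed, and so were 13 of 15 microglia markers.

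The comparison of APP_WT with WT neurospheres asks what the transgenes change in differentiating cells. Of the 9 expressed members, 6 were overexpressed in APP_WT neurospheres and none was underexpressed at an adjusted p below 0.05 (limma), while 18.5% of all expressed probes were called, 11.6% higher and 7% lower. The 6 were Parp14, Parp9, Dtx3l, Parp10, Parp12 and Parp3, so they included 5 of the 6 expressed interferon-responsive members and 1 of the 3 repair members. All 6 were above 0 on every array, as were 15.1% of all probes with 4 values, and Parp11 and Parp1 were below 0 on every array, as were 11.9%. For the same 6 genes the lowest APP_WT level was above the highest WT level, as it was for 6.72% of probes, and for Parp1 all APP_WT levels were below those of WT, as for 4.08%. The Parp1 groups almost touched: the highest APP_WT level was 10.503 and the lowest WT level 10.507 (log2 intensity). Replicate numbers pair the arrays across comparisons, and with that pairing as a block, turned in sign for APP_WT versus WT, the probes called rose from 5446 to 8265 while the count of members stayed at 6. Calls over all probes leaned higher (62.3% of calls) in the main setting and lower (34.3%, 36.4% and 33.3% higher) with processed signals, median centring and the deposited log2 ratios; the 6 members were called higher under each of these. The methods' pair of tests, significance analysis of microarrays and rank products each at an unadjusted p of 0.05, called the same 6 members higher, beside 7.65% of probes.

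Parp14, a mono-ADP-ribosyltransferase with macrodomains that has been studied in macrophage activation, showed the largest difference among the members. Its log2 intensity in WT neurospheres was 6.25, 6.31, 6.70 and 6.62 on replicates 1 to 4, and in APP_WT neurospheres it was 7.68, 7.60, 8.32 and 8.48. The groups did not overlap, and the arrays with swapped dyes (replicates 3 and 4) read higher in both. The fitted log2 fold change was 1.55 (SE 0.08, limma adjusted p = 5.14e-07), or 2.93-fold with an unadjusted interval of 2.60 to 3.31. The probe was not well above background on any WT array, so the size of the fold is uncertain. It changed with the processing: the log2 fold change was 1.32 without background correction and 3.25 with processed signals.

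Parp9, a family member with little activity of its own that pairs with Dtx3l, had log2 ratios of 1.32, 1.61, 0.74 and 1.75 on the 4 arrays. The array of replicate 3, on which WT had its highest level (log2 intensity 8.37, against 7.46 to 7.67 on the others), gave less than the other 3. The fitted log2 fold change was 1.36 (SE 0.13, limma adjusted p = 5.93e-05), or 2.56-fold with an unadjusted 95% interval of 2.08 to 3.15. Dtx3l had log2 ratios of 0.78, 1.26, 1.08 and 1.29, and its level rose from 6.92 ± 0.21 (SD, n = 4) in WT to 8.02 ± 0.25 (SD, n = 4) in APP_WT on the log2 intensity scale. All 4 ratios were above 0 (SD 0.24), with a log2 fold change of 1.10 (SE 0.07, limma adjusted p = 3.18e-06), or 2.15-fold. The WT signal of Dtx3l was well above background on 2 of 4 arrays, and the size of its fold changed with the processing. The log2 fold change was 0.97 without background correction and 1.84 with processed signals. The second Dtx3l probe was not well above background on any of these arrays in either condition, and its log2 ratio averaged -0.04 ± 0.14 (SD, n = 4), so the 2 probes gave different readings and only 1 of them measured the gene.

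Parp10 is a mono-ADP-ribosyltransferase that has been linked to cell cycle control. Its log2 ratios were 0.99, 1.26, 0.88 and 1.16, and the log2 fold change was 1.07 (SE 0.10, limma adjusted p = 2.80e-05), or 2.10-fold. WT values (8.02 to 8.32) lay below all APP_WT values (8.90 to 9.48) on the log2 intensity scale. Parp12, a zinc-finger family member with antiviral activity, had log2 ratios of 0.51, 0.69, 0.51 and 0.76. The groups were again apart, but the difference was smaller, with a log2 fold change of 0.62 (SE 0.07, limma adjusted p = 0.000169), or 1.53-fold.

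Parp11, a mono-ADP-ribosyltransferase known to limit interferon receptor levels, was the expressed interferon-responsive member that was not called. Its log2 ratios were -0.03, -0.14, -0.35 and -0.04, with a log2 fold change of -0.14 (SE 0.06, limma adjusted p = 0.131). Its signal was dim: well above background on 1 of 4 APP_WT arrays and 2 of 4 WT arrays here, and it counted as expressed through the treatment arrays. With processed signals it was called lower (log2 fold change -0.55, adjusted p = 0.00780), and without replicate 4 of this comparison as well (-0.22, adjusted p = 0.0431). Zc3hav1 was not well above background on any of the 8 readings of this comparison; its log2 intensity was 6.15 ± 0.04 in WT and 6.31 ± 0.05 in APP_WT (SD, n = 4), both under detection, and no fold is given.

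Of the repair members, Parp3 was called and Parp1 and Parp2 were not. Parp1, the main sensor of strand breaks, had a log2 intensity of 10.54 ± 0.03 in WT and 10.43 ± 0.06 in APP_WT (SD, n = 4), with log2 ratios of -0.07, -0.06, -0.15 and -0.16. The log2 fold change of -0.11 (SE 0.05) was not called (limma adjusted p = 0.183), and the call changed with the scaling: with median centring it was -0.24 (adjusted p = 0.0380), and with processed signals or the deposited log2 ratios -0.17 (adjusted p = 0.0444 and 0.0424). Parp2, which shares the break-sensing role of Parp1, had log2 ratios of 0.08, 0.30, -0.06 and -0.15, on both sides of 0, and a log2 fold change of 0.04 (SE 0.06, limma adjusted p = 0.666). Parp3, which acts in double-strand break repair, had log2 ratios of 0.18, 0.41, 0.21 and 0.68, all above 0. Its log2 fold change was 0.37 (SE 0.08, limma adjusted p = 0.00754), or 1.29-fold. Parp3 lost its call without replicate 4 (0.25, adjusted p = 0.0545) and when this comparison was fitted on its own arrays (adjusted p = 0.0741).

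**Figure D1:**
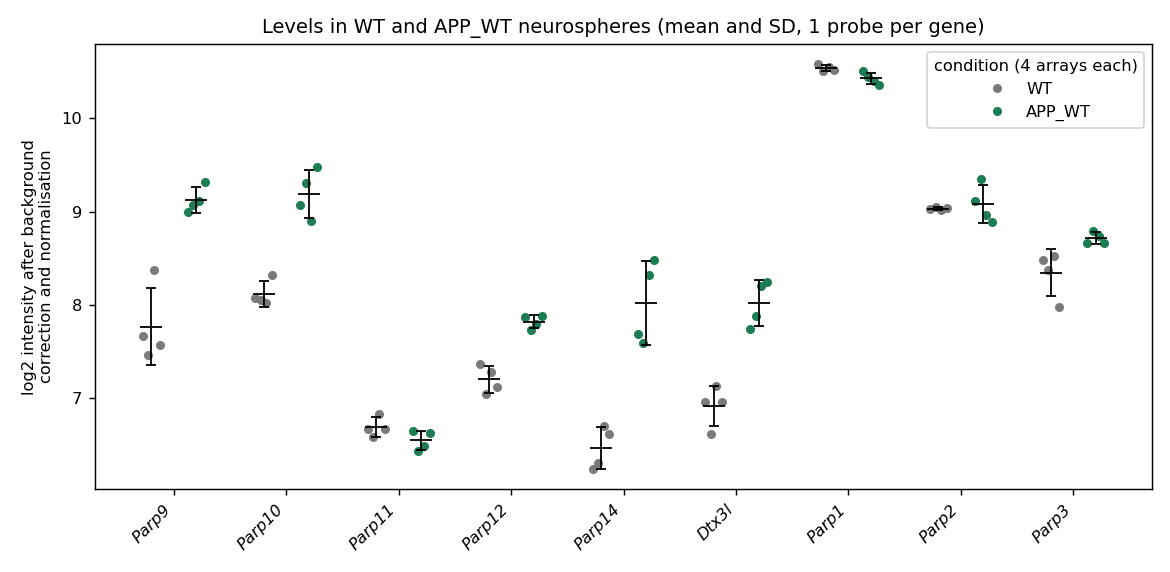
Log2 intensity (y axis, after background correction and normalisation) of the 9 expressed members (x axis) in WT and APP_WT neurospheres; points are single arrays, bars are mean and SD (n = 4). Every APP_WT point lies above every WT point for Parp9, Parp10, Parp12, Parp14, Dtx3l and, by a narrow gap, Parp3. For Parp1 every APP_WT point lies below every WT point, but the closest points are almost level (10.503 and 10.507). Levels of different genes come from different probes and cannot be set against each other.

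Over the 6 expressed interferon-responsive members the median was 1.09 on the log2 scale (lowest -0.14, highest 1.55), against 0.04 over the 3 repair members (range -0.11 to 0.37), beside a median of 0.0039 over all expressed probes. The median of the interferon-responsive members was above that of the repair members on each array, by 0.80, 0.96, 0.87 and 1.37 on replicates 1 to 4 (log2 scale, SD 0.25). The difference of the medians was 1.04 on the log2 scale; with processed signals it was 1.46 and with the deposited log2 ratios, which lack a value for Parp11, 1.65.

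Promoter sequence was looked at for members that did and did not move together. RefSeq windows (GRCm38.p6, 250 bases before to 50 after a start) were matched for 7 of the 10 members in 8 entries. Parp9, Parp10 and Parp14, all overexpressed in APP_WT neurospheres, had no entry and were not searched. Of the called interferon-responsive members only Dtx3l and Parp12 could be looked at, so called and uncalled members cannot be compared for these motifs. They were searched on both strands for the core of the interferon-stimulated response element, written as GAAA, any 2 bases and GAAA, and for the gamma-activated site, TTC, any 3 bases and GAA, which reads the same on both strands. Over all 32851 promoter windows of this table, 3.44% held the first motif and 8.3% the second. Among the members' 8 windows, 1 held a match, and it held both: the upstream entry of Parp11, the expressed interferon-responsive member that was not called. The 250 bases before the start of this entry are shown with those of Dtx3l and Parp12, which were overexpressed; capitals mark the matches, which begin 44 and 37 bases before the start and overlap, and the other sequences have none. The Parp11 window is chr6:127446590-127446839 on the plus strand, the Parp12 window chr6:39118350-39118599 and the Dtx3l window chr16:35939028-35939277, both on the minus strand.
Parp11: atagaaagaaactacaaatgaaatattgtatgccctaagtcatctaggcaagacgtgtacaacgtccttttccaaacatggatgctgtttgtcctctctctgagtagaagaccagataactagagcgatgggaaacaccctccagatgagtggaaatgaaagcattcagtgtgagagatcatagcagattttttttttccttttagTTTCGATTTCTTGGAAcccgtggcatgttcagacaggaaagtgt
Dtx3l: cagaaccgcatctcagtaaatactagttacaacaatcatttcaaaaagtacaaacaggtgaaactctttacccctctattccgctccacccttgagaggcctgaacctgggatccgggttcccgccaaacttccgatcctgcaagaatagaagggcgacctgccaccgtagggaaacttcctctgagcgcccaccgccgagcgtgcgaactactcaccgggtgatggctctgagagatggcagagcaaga
Parp12: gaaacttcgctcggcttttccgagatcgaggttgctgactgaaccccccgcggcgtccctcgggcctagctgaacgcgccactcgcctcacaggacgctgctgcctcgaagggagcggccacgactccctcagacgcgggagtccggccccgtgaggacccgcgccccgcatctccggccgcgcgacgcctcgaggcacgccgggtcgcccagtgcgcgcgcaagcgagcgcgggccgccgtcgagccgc
A match is a description of the letters in this window, and no match says only that these letters are not there. By the order of genes in RefSeq, Dtx3l and Parp9 are adjacent on chromosome 16 with overlapping ends, and Parp14 is the nearest protein-coding neighbour on the Dtx3l side.

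Other genes of the pathway were grouped in lists. Over all expressed probes, 18.5% were called in APP_WT versus WT, 11.6% higher and 7% lower. Of the 14 interferon signalling genes, all expressed, 9 were overexpressed and 1 underexpressed in APP_WT neurospheres, and their median was 0.35 on the log2 scale. The largest were Usp18, which restrains interferon receptor signalling (1.44, SE 0.14, limma adjusted p = 4.76e-05), the transcription factor Irf1 (1.25, SE 0.10, adjusted p = 9.70e-06), the interferon gamma receptor chain Ifngr1 (0.66, SE 0.07, adjusted p = 0.000153) and Irf9, a subunit of the factor that binds the response element (0.60, SE 0.05, adjusted p = 1.60e-05). Of 4 genes that work with ZAP, the ubiquitin ligase Trim25 was overexpressed (1.21, SE 0.08, adjusted p = 2.40e-06) and the other 3 were not called. The 10 genes called on the interferon list and Trim25 kept their sign under every scaling in which they were measured.

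Among 7 other PARP and tankyrase genes, Parp4, the vault PARP, was overexpressed (0.45, SE 0.05, limma adjusted p = 0.000142) and the list median was -0.08. None of the 4 other Deltex ligases was called. Of 8 enzymes that remove ADP-ribose, Macrod1 was higher (0.65, SE 0.06, adjusted p = 4.20e-05) and Macrod2 lower (-0.48, SE 0.06, adjusted p = 0.000210); both are macrodomain hydrolases, and 2 of 4 Macrod2 probes were not called. Of 10 strand break repair partners, the DNA polymerase Polb was lower (-0.26, SE 0.06, adjusted p = 0.0117) and none was higher. The counts of these small lists are to be read beside the 18.5% of all expressed probes that were called. Of 13 genes of NAD metabolism, 10 were expressed; Naprt, which makes NAD from nicotinic acid, was higher (0.59, SE 0.06, adjusted p = 7.14e-05), as was the NAD hydrolase Cd38 (0.25, SE 0.08, adjusted p = 0.0491), and the NAD-forming enzyme Nmnat2 was lower (-0.17, SE 0.05, adjusted p = 0.0467). Cd38 lost its call under 4 of 4 other scalings. Qprt, Sarm1 and Bst1 were on the array but not expressed. The sign-turned replicate block was chosen after seeing the data, and with it 8265 of 29361 probes were called against 5446. The calls were then 2 among the other PARP genes, 4 among the ADP-ribose removing enzymes and 3 among the ZAP partners. They were 4 among the strand break repair partners, 4 in NAD metabolism, 10 in interferon signalling and 0 among the Deltex ligases.

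**Figure D2:**
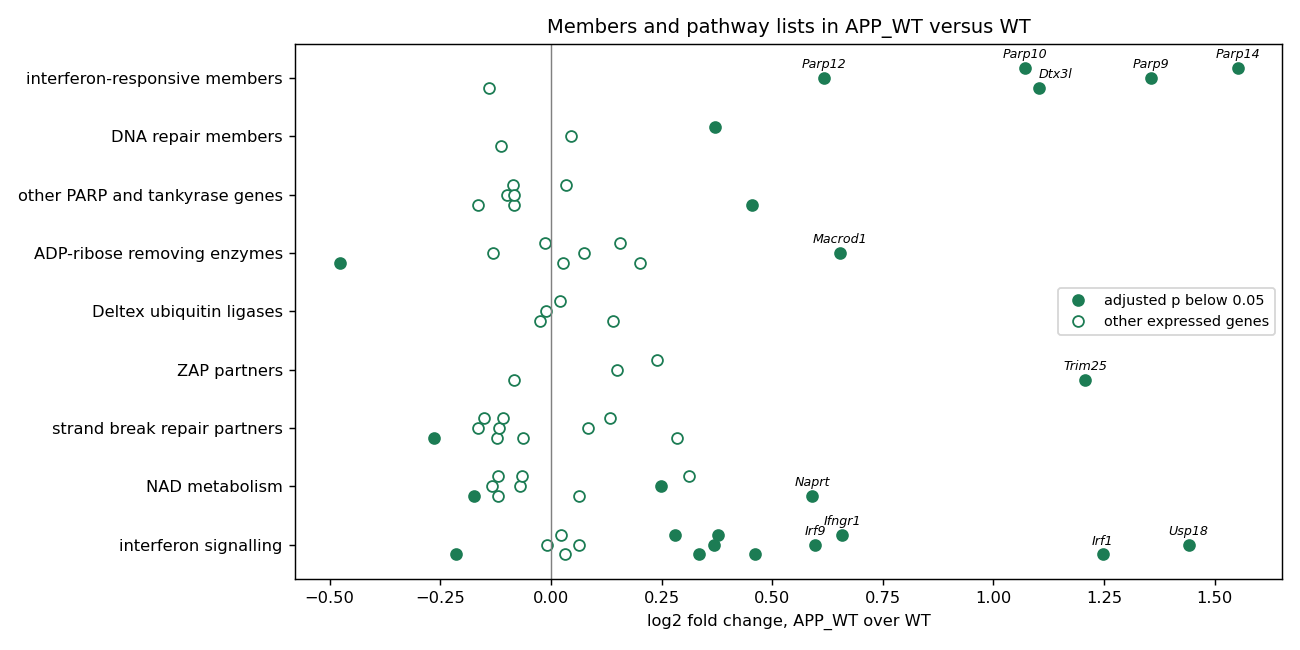
Log2 fold change of APP_WT over WT (x axis) for each expressed gene of the member and pathway lists (rows; vertical offsets within a row carry no value). Filled points passed an adjusted p of 0.05; The filled points beyond 1 are Parp9, Parp10, Parp14, Dtx3l, Trim25, Irf1 and Usp18, and no Deltex ligase of the separate list is filled.

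Markers of microglia and astrocytes were mostly higher in APP_WT neurospheres, while those of other cell types, the oligodendrocyte lineage among them, were not. Of all expressed probes, 11.6% were called higher and 7% lower. Of 15 microglia markers, 14 were on the array, 13 were expressed and 12 were overexpressed in APP_WT neurospheres; the list median was 1.39 on the log2 scale. The largest were Cx3cr1 (2.31, SE 0.07, limma adjusted p = 2.14e-08), Tyrobp (2.22, SE 0.10, adjusted p = 2.01e-07), Aif1 (2.21, SE 0.08, adjusted p = 6.69e-08) and C1qa (2.07, SE 0.10, adjusted p = 1.21e-06, fitted on 3 of 4 arrays). The summed intensity of the 13 genes ranged from 9846 to 12011 in WT and from 14081 to 18060 in APP_WT. On replicate 4 the sums of both conditions lack C1qa, which had no value there. P2ry12 was not expressed by the rule used and Cd68 had no named probe. Of 7 astrocyte markers 6 were overexpressed (summed intensity 96039 to 118229 in WT, 133119 to 147340 in APP_WT). With median centring 3 of these 6 kept their call, while S100b, Aldoc and Slc1a3 did not (adjusted p = 0.576, 0.497 and 0.0795 by limma). The other expressed probes of Slc1a2 were not called (0.09 and 0.14, limma adjusted p = 0.440 and 0.205), while those of Gfap and Aqp4 were called higher. Among 24 listed genes with several expressed probes, 4 had probes that differed in call: Macrod2, Slc1a2, Csf1r and Itgam. Neuron markers went both ways (3 higher and 2 lower of 9, of which 3 kept their call with median centring), as did neural progenitor (2 and 2 of 5) and oligodendrocyte lineage markers (1 and 1 of 7); 1 of 5 expressed endothelial and fibroblast markers was lower, and of 6 peripheral myeloid markers 1 was expressed, and it was higher. More cells of a type and more RNA per cell cannot be told apart in these bulk samples, and the part of either cell type in the members' values was not tested.

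The comparison of BK_APP with APP_WT asks what bradykinin adds on the transgenic background. No member was called, and neither was any of the 29361 probes (0% of probes; limma, 1311 at an unadjusted p below 0.05). All 6 expressed interferon-responsive members had a fitted log2 fold change above 0, from 0.10 to 0.24 with a median of 0.11 (without replicate 3, Parp9 and Parp10 were at -0.0022 and -0.0091), and the 3 repair members lay between -0.03 and 0.01. The median over all expressed probes was -0.0046. At an unadjusted p below 0.05, 2 of the 9 members were higher, against 2.1% of all probes.

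Parp14 had the largest value of the members, with log2 ratios of 0.56, 0.24, 0.20 and -0.04. The array of replicate 4 lay slightly below 0 and replicate 1 well above the rest, and the log2 fold change was 0.24 (SE 0.08, unadjusted 95% interval 0.06 to 0.41, limma adjusted p = 0.967). Parp12 was also highest on replicate 1 and below 0 on replicate 4, with 0.42, 0.16, 0.19 and -0.10 (log2 fold change 0.17, SE 0.07, adjusted p = 0.967), and without replicate 1 or replicate 3 its value was 0.10. Dtx3l had 0.05, 0.05, 0.15 and 0.18, and Parp11 had 0.10, 0.02, 0.19 and 0.10. These 2 genes were above 0 on all 4 arrays, as were 5.1% of all probes. Parp9 (0.20, 0.04, 0.30 and -0.13) and Parp10 (0.21, -0.05, 0.37 and -0.10) crossed 0, and without replicate 4 their log2 fold changes were 0.21 and 0.22. Zc3hav1 was well above background on 1 of 4 BK_APP arrays and on none of the APP_WT arrays beside them, with log2 ratios of 0.25, 0.22, 0.0026 and -0.15. The methods' pair of tests called Parp14 higher and no other member, beside 1.16% of probes called higher.

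The difference between the medians of the interferon-responsive and the repair members was 0.12 on the log2 scale, and by array it was 0.22, 0.12, 0.15 and -0.02 (SD 0.10); without replicate 2 it was 0.18. With processed signals or the deposited log2 ratios it was 0.22. Microglia markers had a median log2 fold change of 0.15, with 0 of 13 called, and their summed intensity (15166 to 16932 in BK_APP, 13569 to 17369 in APP_WT) overlapped between conditions. Medians were -0.05 over the astrocyte markers and -0.12 over the neuron markers. They were -0.06 over the 4 Deltex ligases, 0.0030 over the ZAP partners, 0.03 over the strand break repair partners and 0.0028 over interferon signalling genes, with no gene called.

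The comparison of HOE_APP with APP_WT asks what blocking the B2 receptor changes. Both channels of these arrays are labelled with the same treatment, so the direction is likely and not settled. It rests on the labels of channel 1, the titles, the dye swap and the layout of the BK_APP arrays. The deposited log2 ratios of these arrays followed the same assignment in sign. No member was called, and neither was any probe (0% of probes; limma, 1476 at an unadjusted p below 0.05). The likely direction was lower in HOE_APP for 5 of the 6 expressed interferon-responsive members, and their median was -0.20 on the log2 scale (range -0.26 to 0.04), while the repair members had a median of 0.06 (range -0.11 to 0.07) and all expressed probes 0.00022. At an unadjusted p below 0.05, 3 of the 9 members were lower, against 2.72% of all probes.

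Dtx3l had log2 ratios of -0.35, -0.31, -0.12 and -0.24, all below 0, and a log2 fold change of -0.26 (SE 0.07, unadjusted 95% interval -0.42 to -0.10, limma adjusted p = 0.924). Parp10 had -0.30, -0.22, -0.02 and -0.46, and its log2 fold change was -0.25 (SE 0.10, adjusted p = 0.924). Parp9, the partner of Dtx3l, had -0.37, -0.17, -0.04 and -0.24 (log2 fold change -0.21, SE 0.13, adjusted p = 0.924). Parp14 had -0.15, -0.09, -0.09 and -0.47 (log2 fold change -0.20, SE 0.08, adjusted p = 0.924), so its array of replicate 4 lay far below the others. Without replicate 4 the log2 fold change was -0.14 for Parp10 and -0.10 for Parp14. These 4 genes were below 0 on all 4 arrays, as were 5% of all probes, and the methods' pair of tests called the same 4 lower, beside 1.52% of all probes. Parp12 (-0.00, 0.16, -0.22 and -0.28) and Parp11 (0.14, 0.07, 0.03 and -0.09) lay on both sides of 0. Zc3hav1 was well above background on 1 of 4 arrays in each condition, and its log2 ratios were between -0.11 and 0.04.

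**Figure D3:**
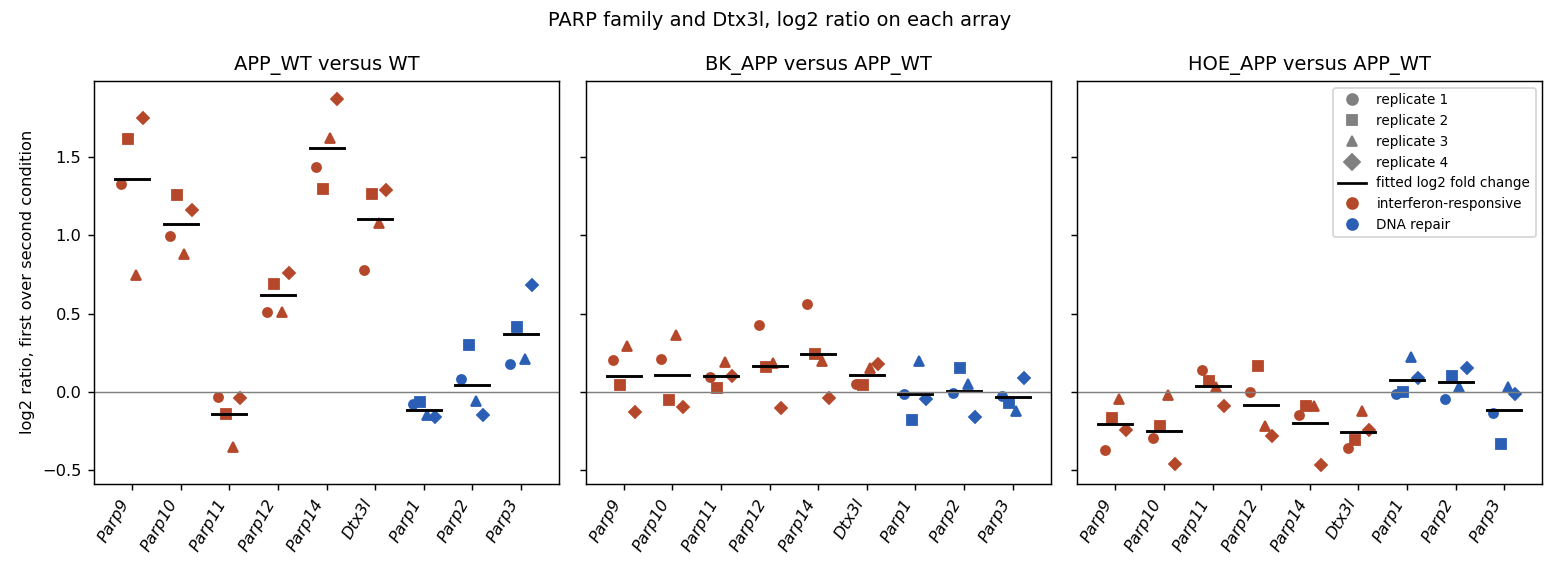
Log2 ratio (y axis) of the 9 expressed members on each array of the 3 comparisons (panels); symbols are replicates 1 to 4, black lines the fitted log2 fold change. The APP_WT versus WT values of Parp9, Parp10, Parp12, Parp14 and Dtx3l lie between 0.51 and 1.86, and the values of both treatments lie between -0.47 and 0.56.

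Of the repair members, Parp1 had log2 ratios of -0.01, -0.00, 0.22 and 0.09, Parp2 had -0.05, 0.10, 0.03 and 0.15, and Parp3 had -0.13, -0.33, 0.03 and -0.02. None kept to 1 side of 0. The difference of medians between the groups was -0.26 on the log2 scale, and by array it was -0.17, -0.13, -0.10 and -0.35 (SD 0.11); without replicate 4 it was -0.15. Microglia markers had a median log2 fold change of -0.07, with 0 of 13 called and summed intensities of 11483 to 15568 in HOE_APP and 13025 to 17751 in APP_WT, which overlapped; their part in the members' values was not tested. Astrocyte markers had a median of -0.10 and neuron markers -0.02, with none called. The ZAP partners had a median of -0.08 and the interferon signalling genes -0.05. Within each treatment comparison, log2 ratios over all expressed probes correlated at 0.24 to 0.43 between its arrays of the same dye orientation and at -0.32 to -0.11 between its arrays of opposite orientation, a description across probes, which are not independent replicates.

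Bradykinin and HOE-140, an agonist and an antagonist of the same receptor, were given at a matched dose and on matched days, and the difference of their log2 fold changes was tested in the same model for all 29361 probes. No member and no probe was called (0% of probes; limma, 733 at an unadjusted p below 0.05). In all 6 expressed interferon-responsive members the value in BK_APP was above that in HOE_APP, with a median difference of 0.33 (range 0.07 to 0.44), and the repair members had a median of -0.05 (range -0.09 to 0.08), beside -0.0025 over all expressed probes. At an unadjusted p below 0.05, 4 of the 9 members were higher in BK_APP, against 1.2% of all probes. The direction rests on the likely dye assignment of the HOE_APP arrays.

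Parp14 differed by 0.44 (SE 0.11, unadjusted 95% interval 0.19 to 0.68, unadjusted p = 0.0027 and adjusted p = 1.00 by limma), and Dtx3l by 0.36 (SE 0.10, interval 0.14 to 0.59, unadjusted p = 0.0049 and adjusted p = 1.00). For these 2 genes the lowest BK_APP array was above the highest HOE_APP array (-0.04 against -0.09 for Parp14, 0.05 against -0.12 for Dtx3l), as it was for 0.572% of all probes. Set side by side by replicate number, which pairs the arrays, BK_APP was above HOE_APP in 4 of 4 pairs for Parp9, Parp10, Parp14 and Dtx3l, as for 8.54% of all probes, and below it in 4 of 4 pairs for Parp1, as for 8.3%. Parp10 differed by 0.35 (interval 0.05 to 0.65), Parp9 by 0.31 (interval -0.11 to 0.73) and Parp12 by 0.25 (interval 0.03 to 0.47). Parp11 differed by 0.07 (interval -0.12 to 0.25), and intervals of the repair members were -0.25 to 0.08 for Parp1, -0.24 to 0.14 for Parp2 and -0.16 to 0.32 for Parp3. These intervals come from the model without the pairing; with the sign-turned replicate block, chosen after seeing the data, the unadjusted p of Parp9 was 0.0393 in place of 0.132 (adjusted p = 0.822) and that of Parp1 0.218 in place of 0.289 (adjusted p = 0.937, limma). With the replicate block as planned, without the turned sign, these unadjusted p were 0.174 and 0.301, and no member was called with either block. Over the alternative settings the adjusted p of Parp14 ranged from 0.432 to 1.00 and that of Dtx3l from 0.729 to 1.00. Microglia markers differed in the same direction in 13 of 13 genes, with a median of 0.20 and none called. Astrocyte markers were above 0 in 4 of 7 genes (median 0.04) and neuron markers in 0 of 9 (median -0.08), also with none called.

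**Figure D4:**
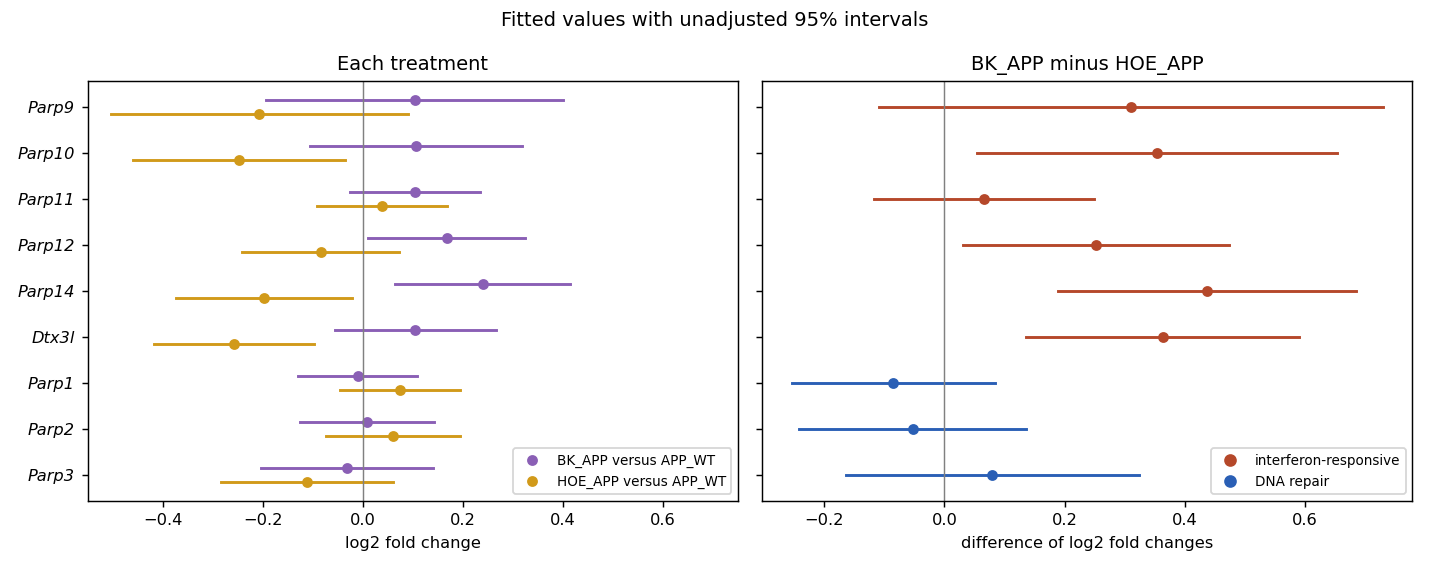
Left, log2 fold change of the 9 expressed members in BK_APP and HOE_APP against APP_WT (x axis); right, the difference of the 2 values; lines are unadjusted 95% intervals from the model. The intervals of Parp10, Parp12, Parp14 and Dtx3l in the right panel lie above 0 and those of the repair members cross 0, and no value passed the adjusted test.

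Likeness between genes was measured as the root mean square difference of their log2 ratios over all 12 arrays, so that 0 is an identical pattern. The arrays share conditions, among them the APP_WT control condition, and no test was made. Among the members Parp11 and Parp1 were closest (0.14), followed by Parp10 and Dtx3l (0.16), and Parp14 and Parp1 were farthest apart (1.01). Parp9 lay nearer to Parp10 (0.24) than to its partner Dtx3l (0.27). Outside the family, the genes nearest to the mean of the 6 interferon-responsive members were Csf1, a growth factor for microglia and macrophages (0.09), the intermediate filament gene Vim (0.11), Tor3a (0.12), the NADPH oxidase subunit Ncf4 (0.12) and the tumour necrosis factor receptor Tnfrsf1a (0.12). Within the family, Parp10 was nearest to that mean (0.13) and Parp11 farthest (0.63). The 5 genes outside the family were picked by nearness over these same 12 arrays, so their fold changes resemble the members' mean by choice. Their log2 fold changes were between 0.77 and 1.00 in APP_WT versus WT, between 0.04 and 0.18 in BK_APP and between -0.13 and -0.04 in HOE_APP. Nearest to the mean of the repair members were Ndufa3 (0.04), Amz1 (0.04) and Cuta (0.05).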

How the data were processed

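RNA of WT, APP_WT, BK_APP and HOE_APP neurospheres was measured on 12 two-colour Agilent mouse arrays, 4 per comparison. APP_WT versus WT lay on slide 1 and both treatments on slide 2, so that slide and comparison cannot be told apart. Per the file headers, the authors' scanner files came from Agilent Feature Extraction 11.0.1.1 and hold the median foreground and background intensity of each channel, processed intensities, spot flags and a log10 ratio of red over green. The deposited value table held log2 ratios; its slope against the log10 ratio was 3.32 in size, its sign followed the dyes, and its column medians ranged from -0.155 to 0.036. Centring beyond that of the scanner software is not given in the sources used here.

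From the median intensities, background was removed by the normexp model (offset 50) and each array was normalised by loess (span 0.3), with control spots (3671 of 62976) at weight 0 and spots flagged as uneven left out. Spots of a probe were averaged, giving 55681 probes, of which 29361 were expressed; 461 of these lacked a value on at least 1 array and were fitted on the others. All ratios were turned the same way by the labelled dyes. A single limma 3.58.1 model in R 4.3.3 held 3 means and 3 dye coefficients (6 residual and 4.56 prior degrees of freedom), with the contrast BK_APP minus HOE_APP, and p-values were adjusted by Benjamini-Hochberg over all expressed probes, with a threshold of 0.05. Intervals are 95% intervals of that model. A gene was represented by its brightest expressed probe. Figures were drawn with matplotlib 3.10.9 in Python 3.11.15. The code was tested on simulated data.

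The rule for named genes took all 10 members, of each pathway list and the microglia markers at most the 4 largest called in APP_WT versus WT and those without a measured probe, and the 5 and 3 genes nearest to the 2 member means. Members and lists were chosen with earlier results of these data known. The methods' tests, significance analysis of microarrays (16 sign flips, pooled over probes) and rank products (100 permutations), were run as an alternative. Other alternatives were no background correction, processed intensities, median centring, all probes, no dye term, separate fits, a replicate block, leaving out each array, the deposited log2 ratios and the mean of a gene's probes.

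The replicate numbers pair the arrays. Deviations of same-numbered arrays from their group means correlated across probes at 0.515 to 0.675 between BK_APP and HOE_APP, and, with the sign turned, at 0.301 to 0.601 between APP_WT versus WT and the treatments, each above the correlations with other numbers. The sources do not say whether the APP_WT RNA of a number was shared.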

Additional observations from a re-analysis of the deposited data

Results flagged for a closer look

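Parp14 in HOE_APP versus APP_WT had 1 array far from the others: replicate 4 read -0.47 on the log2 scale and the other 3 read -0.15 to -0.09, a gap of 0.849 of the whole range, above Dixon's 95% critical value for 4 samples. With 27 sets of 4 arrays looked at, about 1 in 20 would be marked by chance.

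Dtx3l lay on opposite sides of 0 under the treatments. All 4 BK_APP arrays were above 0, as for 5.1% of all probes, and all 4 HOE_APP arrays below 0, as for 5%. The lowest BK_APP array was above the highest HOE_APP array, as for 0.572% of all probes, and the difference was 0.363 on the log2 scale. In the limma model this difference had an unadjusted p of 0.0049 and an adjusted p of 1.00, so it failed the correction, and the direction in HOE_APP rests on the likely dye assignment.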

How the results depend on the processing

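Parp9, Parp10, Parp12, Parp14 and Dtx3l were called higher in APP_WT versus WT under all 14 alternatives, with a highest adjusted p of 0.00648 (limma). The count of members called ranged from 5 (separate fits) to 8 (processed intensities) against 6. Parp3 lost its call in separate fits and without replicate 4; Parp1 gained one with processed intensities, median centring and the deposited ratios, and Parp11 with processed intensities and without replicate 4. The cause was not tested. The log2 fold change of Parp14 ranged from 1.32 to 3.26 and that of Dtx3l from 0.97 to 1.84. The difference between the medians of interferon-responsive and repair members became 1.46 with processed intensities and 1.65 with the deposited ratios in APP_WT versus WT, and 0.22 with both in BK_APP. Significance analysis of microarrays with rank products called 1 member in BK_APP and 4 in HOE_APP, where limma called 0. Leaving out 1 array gave 6 members called in each case and differences of 0.959 to 1.13 in APP_WT versus WT, 0 members and 0.132 to 0.178 in BK_APP, 0 members and -0.315 to -0.151 in HOE_APP, and 0 members and 0.275 to 0.430 for BK_APP minus HOE_APP, with 0.29 without BK_APP replicate 1 and 0.27 without HOE_APP replicate 4.

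With the replicate block, as planned, 6 members were called and the difference of medians was 1.04, as without it; the block with its sign turned in APP_WT versus WT, chosen after seeing the data, changed no member's call. Probes called in APP_WT versus WT were 5446, and 4170 and 8265 with these blocks and 2371 in separate fits; in HOE_APP the turned block called 3 probes against 0. Leaving out an array gave 62, 2 and 2 probes in BK_APP (without replicates 1, 2 and 4), 9 in HOE_APP (without replicate 4), and 13, 2 and 6 for BK_APP minus HOE_APP (without BK_APP replicates 1 and 2 and HOE_APP replicate 4), against 0. Dim signals limit Parp11, Zc3hav1 and the WT levels of Parp14 and Dtx3l.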
